A study of Mus musculus with 20 samples.

Results

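The diet effect described here is that in the 9 libraries of F-coded (female) mice, 4 from mice on a ketogenic diet (KD) and 5 from mice on a control diet (CD, coded SD in the sample names), chosen by the sex code in the sample names out of 20 libraries in all. The remaining 11 libraries came from M-coded mice, 6 on the KD and 5 on the CD, and enter only where a female value is set beside a male one. All mice carried human APOE4 knocked into the mouse Apoe locus, were fed isocaloric amounts of their diet for 12 months from 10 months of age, and were 22 months old when the cortex was taken. Each library is 1 mouse, and RNA of the tissue was sequenced in bulk and deposited as counts of reads per gene. The question asked of the 9 libraries was which genes, pathways and cell-type programmes differed between the diets across the whole transcriptome.

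A ketogenic diet supplies little carbohydrate, so the liver turns fatty acids into ketone bodies, which the brain takes up through monocarboxylate transporters and burns in mitochondria. Fatty acids also act on PPAR nuclear receptors, which switch on genes of fatty acid oxidation, and these have been studied mostly in liver and muscle. A piece of cortex holds excitatory and inhibitory neurons, astrocytes, microglia, oligodendrocytes and vessels, so a change in bulk RNA can come from more cells of a type or from more RNA per cell, which cannot be told apart here.

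The 9 libraries held 12207161 to 25756335 counts on 17286 to 18224 detected genes, with the 4 libraries of library series 1 (numbers beginning S43, mice E61, E68, E62 and E67) deeper than the 5 of series 2 (S47, mice E207, E227, E228, E249 and E265). Xist, expressed from the inactive X chromosome, was at 319 to 1395 CPM (counts scaled to library size), and the Y-linked Ddx3y was at or below 1.68 CPM in 8 libraries and at 14.1 CPM in CD mouse E228, against 156 to 250 CPM in the male libraries. The mouse Apoe gene, replaced in these mice by the human allele, was at 2.16 to 3.27 CPM. The label "cortex" was checked against genes of cortical excitatory neurons. Neurod6, a transcription factor gene of these neurons, was at 8.42, 23.8 and 26.7 CPM in KD mice E61, E68 and E207 and 45.3 CPM in CD mouse E249, but at 110 CPM in KD mouse E227 and 113 to 151 CPM in CD mice E62, E67, E228 and E265. Slc17a7, the vesicular glutamate transporter of cortical neurons, was at 153 to 192 CPM in E61, E68, E207 and E249 and 215 to 497 CPM in the other 5. The first principal component of all tested genes, which held 48.0% of the variance, put the same 4 mice on one side. In series 1 both KD mice and neither CD mouse are among those 4, so that low cortical markers and diet cannot be told apart there, whereas in series 2 each diet has mice of both kinds. Because 3 of the 4 KD mice and 1 of the 5 CD mice are low in these markers, results below are also given without E227 and E249, or with the values of these mice. Without both, every KD mouse left is low in these markers and no CD mouse left is. Low cortical markers and diet therefore cannot be told apart in that fit either, as in series 1.

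**Figure D1:**
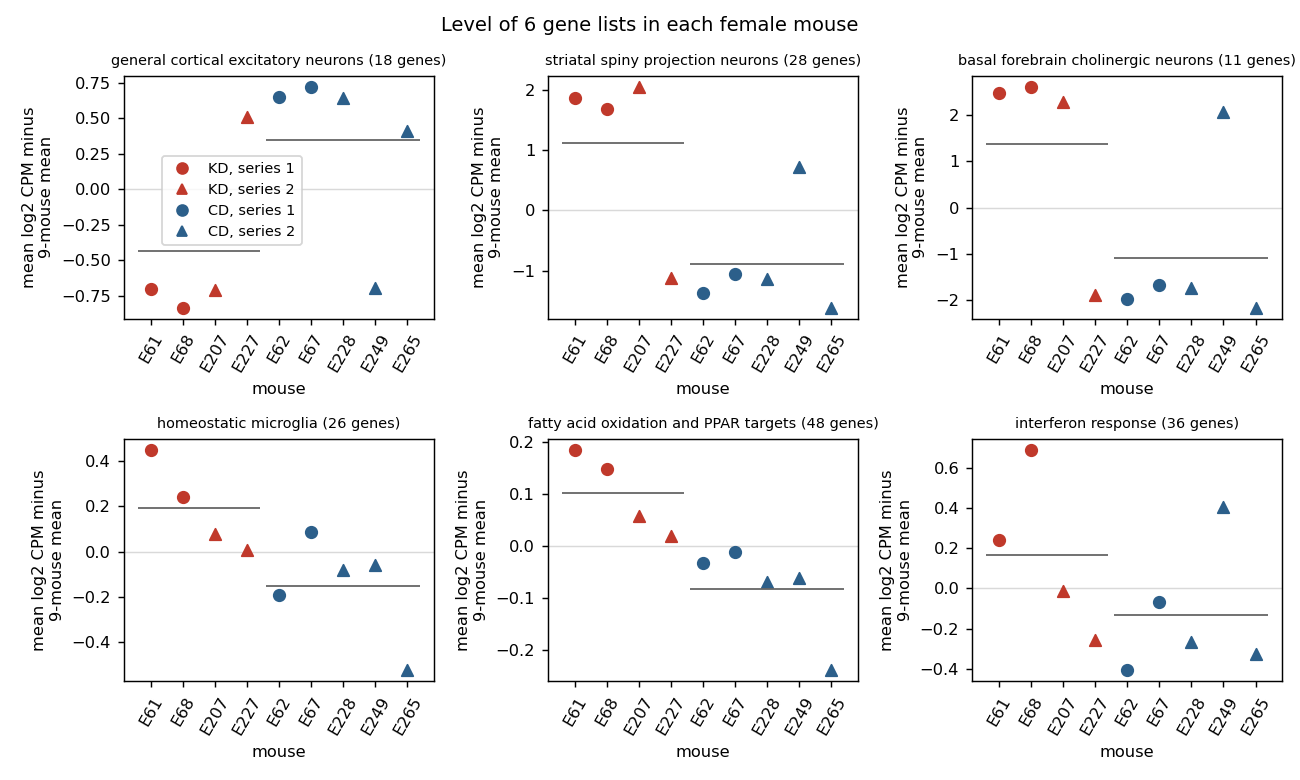
Each panel plots, for 1 gene list, the mean over its genes of log2 CPM minus that gene's mean over the 9 mice (vertical axis, log2 units) in each mouse (horizontal axis). Red marks KD, blue CD, circles series 1, triangles series 2, and the horizontal lines are group means; for cortical, striatal and cholinergic genes KD mouse E227 lies with the CD mice and CD mouse E249 with the KD mice, whereas for fatty acid oxidation genes all 4 KD mice lie above all 5 CD mice.

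Of 15122 genes tested with the library series in the model, 1 was a differentially expressed gene (DEG, FDR ≤ 0.1 and a change of at least 1.5-fold), the heparan sulfate enzyme gene Ndst3, which was lower on the KD (0.00661% of genes, edgeR quasi-likelihood test). The next smallest Benjamini-Hochberg adjusted p was 0.50. At an unadjusted p under 0.05, 637 genes were higher (4.21%) and 537 were lower on the KD (3.55%). The values of the 4 KD and 5 CD mice did not overlap for 168 genes that were higher (1.11%) and for 106 that were lower (0.701%), so that 61.3% of these 274 genes were higher. When CPM was scaled to total counts instead of the upper quartile, 80.6% of 315 such genes were higher. The median log2 fold change over all genes was 0.01 with an interquartile range of -0.12 to 0.16, and 52.2% of genes were above 0.

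The count of DEGs turned on which mice were in the fit. Series 1 alone gave 1848 DEGs (12.2%), 994 higher and 854 lower, and series 2 alone gave 0, with 152 genes at an unadjusted p under 0.05. Without CD mouse E249 the 8 remaining mice gave 611 DEGs, without KD mouse E227 they gave 349, and without both mice 7 libraries gave 1898 (12.3%). In the fit of these 7 libraries, as in series 1, diet and low cortical markers coincide and cannot be told apart. RUVg with 2 factors of unwanted variation in place of the series gave 208 DEGs (1.38%), and with 1 factor it gave 7. Its control genes were picked on these same mice for a large p for diet, so these counts are not independent of the main fit. The series share no mouse, and the log2 fold change of a gene in series 1 was a poor guide to that in series 2: 44.2% of genes had the same sign in both, 22.5% above 0 in both and 21.7% below, with a Pearson r of 0.24 and a Spearman rho of -0.02 across genes, which are not independent replicates. At an unadjusted p under 0.05 in each series, 34 genes were higher in both, 26 were lower in both and 3 went opposite ways.

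**Figure D2:**
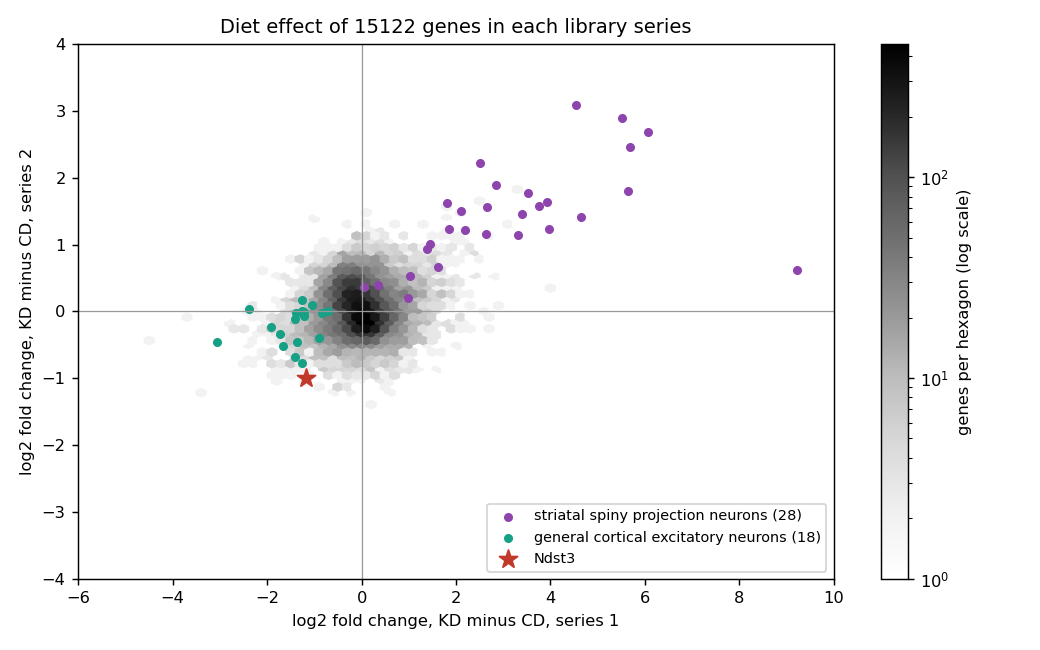
Each gene's log2 fold change, KD minus CD, in series 1 (2 KD, 2 CD; horizontal axis) against that in series 2 (2 KD, 3 CD; vertical axis), as hexagons shaded by the number of genes on a log scale, with 2 genes outside the axes. All 28 striatal genes (purple) lie above 0 on both axes, the 18 cortical excitatory genes (green) lie left of 0 and between -0.78 and 0.17 vertically, and Ndst3 (star) lies near -1 on both.

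**Figure D3:**
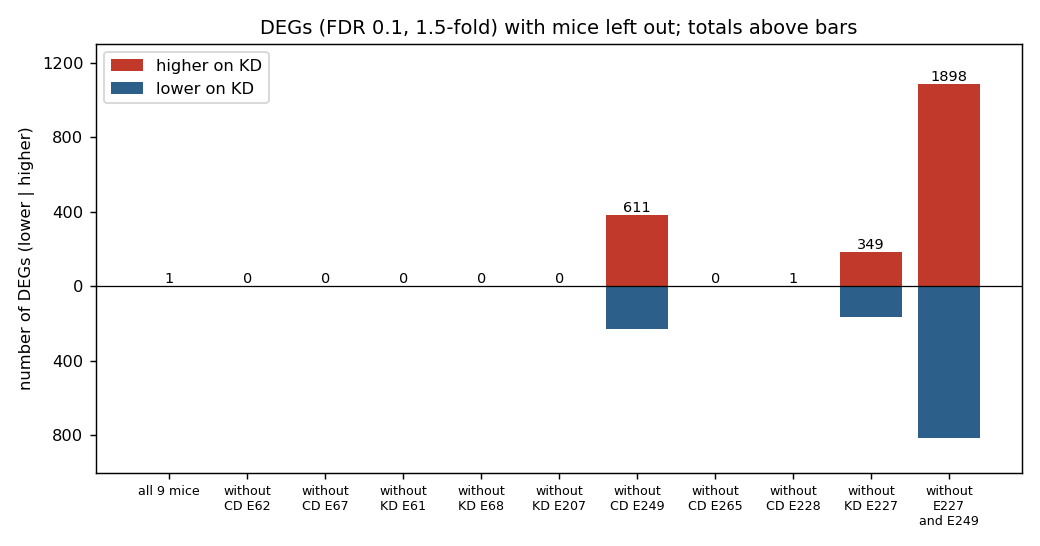
Number of DEGs (FDR ≤ 0.1, at least 1.5-fold) higher on the KD (red, upward) and lower (blue, downward) with all 9 mice, with each mouse left out, and without E227 and E249. Totals of 0 or 1 stand beside 349, 611 and 1898 when E227, E249 or both are left out.

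Ndst3 encodes a bifunctional enzyme that removes acetyl groups from heparan sulfate chains and adds sulfate in their place. It was at 29.2, 30.9, 34.4 and 39.2 CPM in KD mice E61, E68, E207 and E227, and at 64.6, 70.6, 67.9, 72.4 and 81.2 CPM in CD mice E62, E67, E228, E249 and E265. All 4 KD mice lay below all 5 CD mice, and E227 and E249, which changed sides in the cortical markers, each lay with their own diet. Mean levels were 33.5 ± 4.43 CPM (SD, n = 4) for KD and 71.3 ± 6.25 CPM (SD, n = 5) for CD mice. The log2 fold change was -1.08 (SE 0.106, adjusted p = 0.0329), with -1.18 in series 1 and -1.0 in series 2. Its direction held without each mouse (-1.14 to -1.04), but the call did not: the adjusted p was 0.167 to 0.398 without E61, E68, E207, E62, E67 or E265, and 0.0102 to 0.0774 without E227, E249 or E228. Ndst3 lies on chromosome 3 from 123526166 to 123690853 on the minus strand (GRCm38, GENCODE vM21), where a second gene model, Gm42510, overlaps it on the same strand, and whether their exons overlap was not tested.

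The 250 bases before an annotated Ndst3 start are shown because this is the 1 DEG, with the letters TGACG, the core of the cAMP response element (CRE), in capitals. The window is chr3:123619451-123619700 on the minus strand (RefSeq, GRCm38.p6), lies inside the gene as GENCODE draws it, and holds the letters once in 250 bases of which 40.4% are G or C. The other RefSeq window of the gene, chr3:123672478-123672727, lies further upstream on that strand, holds them 0 times and is not printed. The printed window is thus the one that holds the letters.
Ndst3: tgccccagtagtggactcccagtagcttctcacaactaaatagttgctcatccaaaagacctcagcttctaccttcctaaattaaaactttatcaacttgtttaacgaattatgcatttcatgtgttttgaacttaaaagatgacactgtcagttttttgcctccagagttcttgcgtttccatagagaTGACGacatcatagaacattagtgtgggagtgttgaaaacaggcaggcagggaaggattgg
Searched on both strands of the RefSeq windows from 250 bases before to 50 after a start, TGACG was present for 33.8% of the 11884 tested genes with a window, for 25.9% of 505 genes higher at an unadjusted p under 0.05 and for 32.7% of 395 lower genes. The full CRE, TGACGTCA, which contains that core, was present for 3.37%, 1.58% and 2.53% of the same genes. A match of letters is not a bound site, and genes with several starts were counted once.

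The other 9 genes of smallest p among the lower genes, and the 10 among the higher ones, did not pass the adjusted test (adjusted p of 0.50 or 0.559) and are given as values. Of these 20 genes with Ndst3 included, 18 had KD and CD values that did not overlap, all 20 had the same sign in both series, and for 13 both E227 and E249 were nearer to their own diet than to the other. For comparison, both mice were nearer to their own diet for 21.4% of all tested genes, and both were nearer to the other diet for 46.0%. All 20 were chosen on these mice, so their order and separation are a description.

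Among the higher genes, Sec14l3, which encodes a lipid-binding protein of the SEC14 family, was at 8.31, 2.73, 4.36 and 9.46 CPM in KD mice E61, E68, E207 and E227, and at 0.419, 0.649, 1.31, 0.922 and 0.340 CPM in CD mice E62, E67, E228, E249 and E265. The highest KD value was that of E227, and the groups did not overlap (log2 fold change 3.14, SE 0.464). Wfs1 encodes wolframin, a protein of the endoplasmic reticulum membrane. It was at 94.3, 65.4, 82.0 and 42.7 CPM on the KD and 20.9, 29.4, 18.9, 27.4 and 10.7 CPM on the CD, in the same order of mice (1.69, SE 0.287). Otof, which encodes the calcium sensor otoferlin of synaptic vesicle release, was at 49.5, 23.5, 45.2 and 18.6 CPM on the KD and 6.85, 12.1, 7.41, 10.5 and 5.10 CPM on the CD (2.0, SE 0.346). In both genes E227 was the lowest KD mouse and still lay above every CD mouse. With the striatal level as a covariate the log2 fold change was 1.10 for Wfs1 and 1.28 for Otof.

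Crhr2, the receptor for urocortins, was at 1.05 to 2.16 CPM on the KD and 0.285 to 0.559 CPM on the CD (log2 fold change 1.87, SE 0.331). Sh3gl3, which encodes an endophilin that bends membranes in endocytosis, was at 50.3, 48.5, 49.0 and 42.2 CPM on the KD and at 28.8 to 35.1 CPM on the CD, and its change was the smallest of the 10 higher genes (0.56, SE 0.107). Agt, which encodes angiotensinogen, was at 20.2, 10.3, 10.8 and 4.50 CPM on the KD and 1.5 to 3.73 CPM on the CD (2.10, SE 0.414). Clspn, a replication checkpoint gene, was at 1.34 to 5.42 CPM on the KD and 0.0850 to 0.741 CPM on the CD (2.51, SE 0.505). Agt and Clspn were lowest among KD mice in E227, and with the striatal covariate their log2 fold changes were 1.23 and 1.66.

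2 of the 10 higher genes are immune genes. Fcgr4, an activating receptor for antibody, was at 1.14, 0.811, 0.872 and 0.642 CPM on the KD and at 0.170 to 0.373 CPM on the CD (log2 fold change 1.60, SE 0.309). H2-Q2, a class I gene of the major histocompatibility complex whose near-identical neighbours make its read count uncertain, was at 0.642 to 0.938 CPM on the KD, at 0 CPM in CD mice E62, E228 and E265, and at 0.0405 and 0.251 CPM in E67 and E249. Gpr6, a G protein-coupled receptor of striatal neurons, was at 5.75, 2.64 and 6.32 CPM in KD mice E61, E68 and E207. It was at 0.818 CPM in E227, just above the 0.754 CPM of CD mouse E249, and at 0.114 to 0.425 CPM in the other CD mice, and its log2 fold change of 3.72 became 1.78 with the striatal covariate, which holds Gpr6 itself.

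Among the lower genes, Opcml, a cell adhesion molecule of neurons, was the most abundant. It was at 297, 409, 414 and 401 CPM in KD mice E61, E68, E207 and E227 and at 477, 518, 560, 579 and 654 CPM in CD mice E62, E67, E228, E249 and E265 (log2 fold change -0.53, SE 0.114). The groups did not overlap, and E61 was the lowest. Hfe2, which encodes the iron regulator hemojuvelin, was at 0.436 to 0.768 CPM on the KD and 1.38 to 2.45 CPM on the CD (-1.64, SE 0.313). Raph1 encodes lamellipodin, which links signals to actin at the leading edge of cells, and was at 51.4, 74.4, 96.2 and 95.9 CPM on the KD and 96.7 to 158 CPM on the CD (-0.64, SE 0.131), so that E207 and E227 lay just under CD mouse E62.

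The long noncoding RNA C730002L08Rik was at 3.0, 8.96, 7.34 and 19.8 CPM on the KD and 29.3 to 55.8 CPM on the CD (log2 fold change -2.15, SE 0.430). It overlaps Aldh1a1 on the opposite strand, and whether the counts use strand is not given in the sources used here. E430016F16Rik was at 0.128 to 0.409 CPM on the KD and 0.652 to 1.53 CPM on the CD (-2.02, SE 0.351). The adhesion receptor gene Gpr115 (Adgrf4) was at 0.842, 1.32, 1.31 and 3.39 CPM on the KD and 4.01 to 6.10 CPM on the CD (-1.56, SE 0.325). E227 was the highest KD mouse for all 3 of these genes, and with the striatal covariate the log2 fold change of Gpr115 was -0.99.

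The homeobox gene Sebox was at 0.476 to 1.17 CPM on the KD and 1.45 to 3.08 CPM on the CD (log2 fold change -1.58, SE 0.338). For 2 of the 10 lower genes the groups overlapped. 4930447C04Rik, which overlaps Six6 on the opposite strand, was at 7.36 to 14.4 CPM on the KD and 13.7 to 29.8 CPM on the CD (-1.01, SE 0.199). Tdo2, which encodes the enzyme that opens the ring of tryptophan on the path to kynurenine, was at 0.597 to 1.31 CPM on the KD and 1.18 to 2.85 CPM on the CD (-1.04, SE 0.222). For the higher genes not yet given, the striatal covariate left log2 fold changes of 3.33 for Sec14l3, 1.72 for Crhr2 and 0.42 for Sh3gl3. It left 3.26 for H2-Q2 (3.96 without the covariate) and 1.40 for Fcgr4. Among the lower genes it left -1.58 for E430016F16Rik, -1.57 for Hfe2, -1.49 for C730002L08Rik and -1.31 for Sebox. It left -1.07 for Tdo2, -0.94 for 4930447C04Rik, -0.52 for Raph1 and -0.52 for Opcml.

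**Figure D4:**
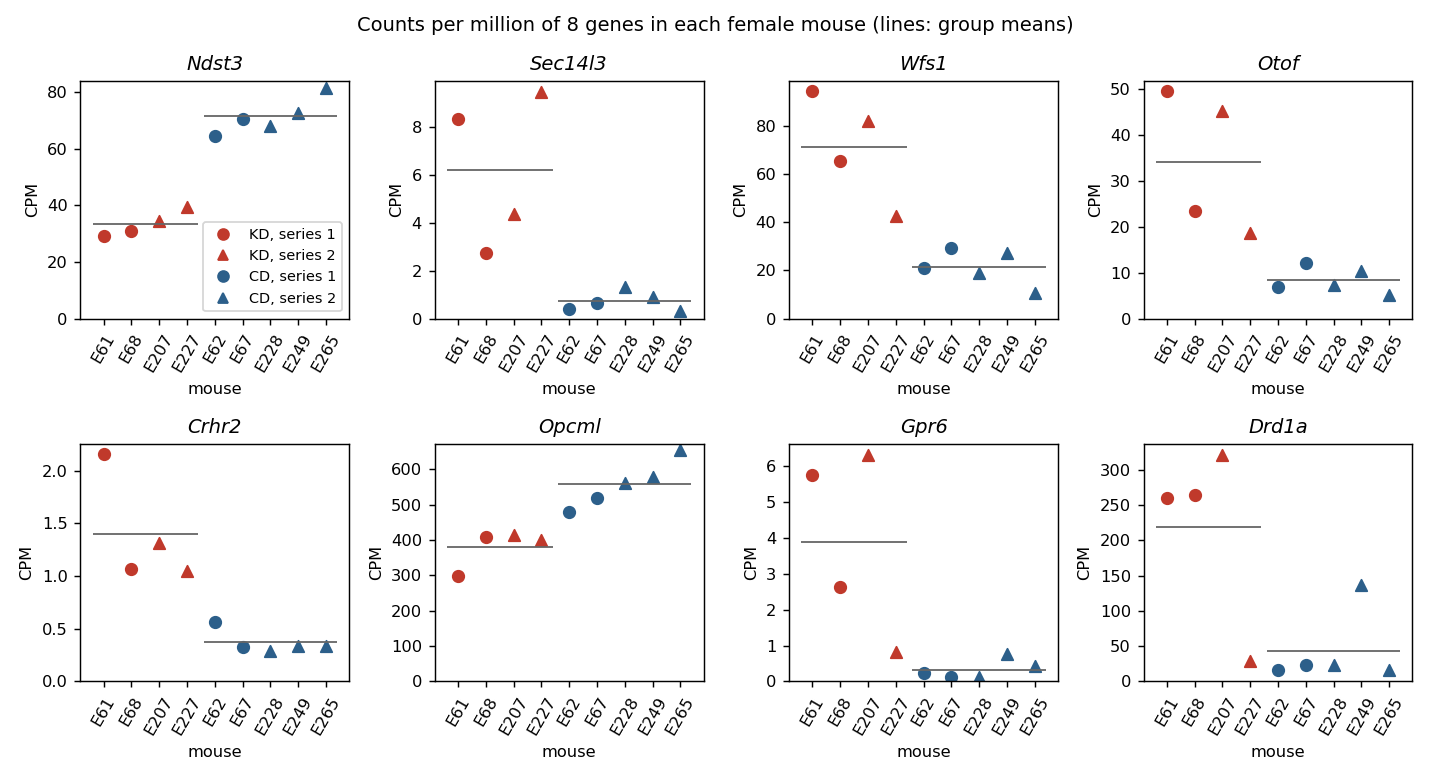
CPM (vertical axis, linear from 0) of 8 genes in each mouse (horizontal axis), with red for KD, blue for CD, circles for series 1, triangles for series 2 and lines at the group means. For Ndst3, Sec14l3, Wfs1, Otof, Crhr2 and Opcml every mouse lies with its own diet, for Gpr6 E227 (0.818 CPM) and E249 (0.754 CPM) nearly meet, and for Drd1a E227 lies among the CD mice and E249 above them.

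Pathways and cell types were described with 64 gene lists, which hold 1677 of the tested genes and 202 of the 1174 genes at an unadjusted p under 0.05. Over all tested genes, 4.21% were higher and 3.55% lower at that p, the shares to set beside the counts in each list. The median log2 fold change was above 0 for 41 lists and within 0.1 of 0 for 27. It had the same sign in both series for 35 lists and opposite signs for 29. The largest medians belonged to neurons of other brain regions. Of 28 genes of striatal spiny projection neurons, the main neurons of the basal ganglia, 22 were higher and 0 lower at an unadjusted p under 0.05, all 28 were above 0 in both series (22.5% of all genes), and the median was 2.25 (2.75 in series 1 and 1.43 in series 2).

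The list's level, the mean over its genes of log2 CPM minus the 9-mouse mean, was 1.86, 1.68, 2.05 and -1.13 in KD mice E61, E68, E207 and E227 and -1.37, -1.06, -1.14, 0.72 and -1.61 in CD mice E62, E67, E228, E249 and E265. The groups overlapped, with E227 among the CD mice and E249 above the other CD mice. Drd1a, Ppp1r1b and Adcy5, members of the list, act in dopamine and cAMP signalling. Drd1a was at 260.1, 264.7, 321.8 and 29.3 CPM on the KD and 15.7, 22.6, 23.7, 136 and 16.6 CPM on the CD (log2 fold change 2.60, SE 0.884, adjusted p = 0.620), with both E227 and E249 nearer to the other diet. Ppp1r1b was at 180, 123, 156 and 20.6 CPM on the KD and 19.3, 22.4, 20.9, 37.8 and 13.2 CPM on the CD, and Adcy5 at 313, 201, 320 and 68.6 CPM on the KD and 68.8, 77.9, 69.7, 89.1 and 31.4 CPM on the CD. For these 2 genes E227 was nearer to the CD mice, but E249 was nearer to its own diet. With the striatal level as a covariate, no gene was a DEG, with 565 genes at an unadjusted p under 0.05 and Ndst3 at -0.96 with an adjusted p of 0.623 (edgeR quasi-likelihood test). This covariate is the list's level in the same mice and goes largely with diet. It is highest in KD mice E61, E68 and E207 and separates the diets in series 1. A call lost in that fit therefore does not show what the change depends on.

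Genes of basal forebrain cholinergic neurons had a median of 2.78 (5.45 in series 1 and 0.84 in series 2), with 4 of 11 tested higher and 0 lower. The list's median was 1.40 without E249, 4.03 without E227 and 5.68 without both. Genes were filtered again in each of these fits, so they need not be the same 11. With the striatal covariate the median was -1.34. Chat, the enzyme that makes acetylcholine, was at 19.3, 16.5, 13.9 and 0.292 CPM in KD mice E61, E68, E207 and E227 and at 0.14, 0.324, 0.228, 6.87 and 0.0850 CPM in CD mice E62, E67, E228, E249 and E265. Chat thus marked the same 4 mice that were low in Neurod6. Only 5 of 14 hypothalamic genes passed the filter on low counts, with Trh and Gal, both neuropeptide genes, and the transcription factor gene Nkx2-1 higher at an unadjusted p under 0.05, while the defining genes Oxt, Avp, Pomc and Hcrt did not pass that filter. The list's median, 2.30 over these 5 genes, was 0.04 without E249, 1.06 without E61 and 3.49 without both E227 and E249. The filter was run again in each of these fits, so the genes behind each median can differ.

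General genes of cortical excitatory neurons went the other way. All 18 were below 0, with 6 lower and 0 higher at an unadjusted p under 0.05 and a median of -0.66 (-1.32 in series 1 and -0.09 in series 2), which was -1.14 without E227 and 0.14 with the striatal covariate. Tbr1, a transcription factor of deep-layer neurons, was at 26.5, 36.9, 42.4 and 55.6 CPM in KD mice E61, E68, E207 and E227 and at 75.3, 91.1, 95.1, 41.2 and 102 CPM in CD mice E62, E67, E228, E249 and E265 (log2 fold change -1.01, SE 0.281). Mef2c, an activity-regulated transcription factor, was at 516, 635, 699 and 1555 CPM on the KD and 1537, 1400, 1529, 940 and 2213 CPM on the CD (-0.86, SE 0.316). For both genes E249 was the lowest CD mouse and E227 the highest KD mouse. Layer-specific lists were mixed, with 4 of 20 upper-layer genes higher and 3 lower, Wfs1 and Otof among the higher, and 1 of 21 deep-layer genes higher and 4 lower.

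Synaptic and channel lists had small negative medians and differed between the series. Synaptic vesicle genes had a median of -0.19 (-0.44 in series 1 and 0.03 in series 2), with 5 of 47 higher and 5 lower, and Snap25, the SNARE protein of vesicle fusion, was at 2601, 3077, 2614 and 3638 CPM in KD mice E61, E68, E207 and E227 and at 4642, 4710, 4599, 2873 and 5326 CPM in CD mice E62, E67, E228, E249 and E265. Snap25 in CD mouse E249 lay within the KD range. Postsynaptic genes had 1 of 39 higher and 7 lower (median -0.14), and potassium channel genes 3 of 59 higher and 10 lower (-0.18), with 27 of the 59 below 0 in both series (21.7% of all genes).

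Kcnj3, a G protein-gated channel, was at 47.3, 60.3, 56.7 and 84.6 CPM on the KD and 84.6 to 119 CPM on the CD (log2 fold change -0.68, SE 0.172), whereas Kcnip2, a subunit of A-type channels, was higher, at 68.1 to 88.1 CPM against 42.2 to 64.3 CPM (0.53, SE 0.135). Among ionotropic glutamate receptor genes 0 of 22 were higher and 3 lower, and Gria3, an AMPA receptor subunit, was at 273, 360, 415 and 400 CPM on the KD and 404 to 634 CPM on the CD (-0.55, SE 0.137). Of 36 activity-induced genes, 2 were higher and 3 lower with a median of 0.00, but the series medians were -0.44 and 0.31. Bdnf, a growth factor of this list, was at 39.5, 34.0, 28.3 and 45.02 CPM on the KD and at 71.2, 64.8, 46.9, 37.4 and 69.7 CPM in CD mice E62, E67, E228, E249 and E265 (-0.67, SE 0.212). The ionotropic glutamate receptor list had a median of 0.08 (-0.15 in series 1 and 0.02 in series 2). The rest of the receptor lists had medians from -0.01 to 0.04.

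Glial lists had positive medians of smaller size. All 26 homeostatic microglia genes had a log2 fold change above 0 (52.2% of all genes), 8 were higher and 0 lower at an unadjusted p under 0.05, and the median was 0.36 (0.45 in series 1 and 0.24 in series 2). The list's level was 0.45, 0.24, 0.08 and 0.00 in KD mice E61, E68, E207 and E227 and -0.19, 0.09, -0.08, -0.06 and -0.53 in CD mice E62, E67, E228, E249 and E265. E67 reached into the KD range and E265 was far below the rest, and the median without any 1 mouse was 0.27 to 0.40. With the striatal level as a covariate it was 0.18, with 0 genes higher. C1qb, a subunit of the first complement component, was at 44.9, 32.2, 31.2 and 27.1 CPM on the KD and 25.9, 28.4, 25.9, 16.8 and 14.6 CPM on the CD (0.56, SE 0.185), and the lysosomal protein gene Cd68 was at 4.44 to 6.96 CPM against 2.81 to 4.29 CPM (0.59, SE 0.188). The cell-surface markers P2ry12 and Tmem119 were not among the 8 and spanned 49.6 to 81.2 and 4.51 to 12.8 CPM over the 9 mice.

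Of 25 astrocyte genes, 21 were above 0 (52.2% of all genes) and 2 were higher, with a median of 0.20 (0.20 in series 1 and 0.15 in series 2). The list's level was -0.03 or more in KD mice and -0.04 or less in CD mice. Gfap, the intermediate filament of astrocytes, was at 176, 113, 115 and 118 CPM on the KD and 69.4 to 111 CPM on the CD (log2 fold change 0.51, SE 0.179), and Mlc1, a membrane protein of astrocyte endfeet, was at 130 to 165 CPM against 89.6 to 128 CPM (0.31, SE 0.113). The groups overlapped for the defining astrocyte markers Aqp4 and Aldh1l1. Aqp4 was at 196 to 319 CPM on the KD and 139 to 370 CPM on the CD, highest in CD mouse E249. Aldh1l1 was at 37.5 to 51.4 CPM on the KD and 24.9 to 58.9 CPM on the CD. Reactive astrocyte genes had 3 of 27 higher and a median of 0.31, which was 0.57 in series 1 and -0.05 in series 2, 0.16 to 0.43 without any 1 mouse and -0.01 with the striatal covariate. C4b, a complement gene of that list, was at 84.5, 73.4, 66.1 and 61.1 CPM on the KD and 30.9 to 56.5 CPM on the CD (0.54, SE 0.172). Oligodendrocyte precursor genes had 5 of 20 higher (median 0.30), and of 28 genes of oligodendrocytes and myelin 25 were above 0, with 1 higher and 1 lower (0.20). With the covariate the medians of astrocytes, precursors and oligodendrocytes were 0.12, 0.08 and 0.13.

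Interferon genes had opposite medians in the series. The median of 36 genes was 0.29, with 0.71 in series 1 and -0.15 in series 2, and the level was 0.24, 0.69, -0.01 and -0.26 in KD mice E61, E68, E207 and E227 and -0.41, -0.07, -0.27, 0.40 and -0.32 in CD mice E62, E67, E228, E249 and E265. E249 was the highest CD mouse and E227 the lowest KD mouse, as for the striatal genes. MHC genes had 1 of 19 higher (median 0.26), complement genes 4 of 27 higher and 1 lower (0.24), and cytokine and chemokine genes 3 of 26 higher and 0 lower (0.11). With the striatal covariate the medians were -0.17 for interferon, 0.15 for MHC and 0.05 for complement genes. The MHC list does not hold H2-Q2. The lower complement gene was C1ra, which activates the classical pathway, at 1.32, 2.26, 1.45 and 3.09 CPM on the KD and 3.45 to 6.29 CPM on the CD (log2 fold change -1.24, SE 0.316). S100a9, an alarmin of neutrophils and 1 of only 3 tested genes among 21 of lymphocytes and neutrophils, was at 0.220 to 0.584 CPM on the KD and 0.730 to 3.66 CPM on the CD (-2.24, SE 0.485). Another of the 3, Cd4, a coreceptor of helper T cells, was at 10.1, 6.83, 9.30 and 0.759 CPM in KD mice E61, E68, E207 and E227 and 0.446 to 1.09 CPM on the CD (3.09, SE 0.655), with E227 inside the CD range. The list's median, -1.49 over these 3 genes, was 0.53 without E249 and 0.49 without E265, and reached 0.55 without E62. The filter was run again in these fits, so they need not hold the same 3 genes.

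Genes of fat and ketone use had small differences. Of 48 genes of fatty acid oxidation and PPAR targets, 2 were higher and 0 lower at an unadjusted p under 0.05, against 4.21% of all genes higher. Of the 48, 41 had a log2 fold change above 0 (52.2% of all genes), 21 were above 0 in both series (22.5%) and 1 was below 0 in both (21.7%). The median was 0.17 (0.25 in series 1 and 0.14 in series 2). The level was 0.19, 0.15, 0.06 and 0.02 in KD mice E61, E68, E207 and E227 and -0.03, -0.01, -0.07, -0.06 and -0.24 in CD mice E62, E67, E228, E249 and E265. It was 1 of 3 among the 64 lists, with astrocytes and ketone metabolism, whose level did not overlap between the diets. The gaps were narrow, with the lowest KD and highest CD levels at 0.019 and -0.011 for fatty acid oxidation. They were -0.034 and -0.041 for astrocytes and -0.033 and -0.047 for ketone metabolism. Of single genes, 1.11% were higher and 0.701% lower without overlap. The fatty acid oxidation median stayed between 0.14 and 0.20 without any 1 mouse, was 0.22 without both E227 and E249, and was 0.13 with the striatal level as a covariate. In that fit the medians of other lists were as large or larger, with 0.17 for complex I, 0.17 for glycolysis and 0.31 for cytosolic ribosomal proteins, and 26 of the 64 list medians changed sign.

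Hadha, the alpha subunit of the mitochondrial trifunctional protein of fatty acid oxidation, was at 87.8, 82.7, 74.8 and 70.7 CPM in KD mice E61, E68, E207 and E227 and at 65.6, 69.1, 68.01, 65.9 and 59.9 CPM in CD mice E62, E67, E228, E249 and E265 (log2 fold change 0.25, SE 0.0932). Every KD mouse lay above every CD mouse, with E227 and E67 close together. The other, Ucp2, an uncoupling protein of the mitochondrial inner membrane, was at 2.86 to 4.47 CPM on the KD and 1.36 to 3.02 CPM on the CD (0.63, SE 0.257). Among 14 genes of ketone metabolism and transport 0 were higher and 1 was lower, with a median of 0.09 (0.06 in series 1 and -0.002 in series 2). For 10 of the 14 the sign differed between the series. The lower gene was Slc16a7, the neuronal monocarboxylate transporter, at 26.9, 33.2, 36.6 and 35.5 CPM on the KD and 35.3, 38.2, 45.9, 40.1 and 52.3 CPM on the CD (-0.33, SE 0.118).

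Fatty acid synthesis and lipid handling had 2 of 21 genes higher and 0 lower (median 0.21): Dgat2, which makes triglyceride, at 37.7 to 49.2 CPM on the KD and 22.4 to 34.2 CPM on the CD (log2 fold change 0.53, SE 0.157), and Gpam, which starts glycerolipid synthesis, at 71.8 to 93.1 CPM and 62.4 to 76.7 CPM (0.33, SE 0.112). The 24 genes of cholesterol biosynthesis had a median of -0.02. Glycolysis had 1 of 33 genes higher and 1 lower, and the TCA cycle (19 genes), complex I (35), complexes III and IV (22) and ATP synthase (16) had 0 in either direction, with medians from -0.03 to 0.05.

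Housekeeping programmes had few genes past an unadjusted p of 0.05. Of 75 cytosolic ribosomal protein genes 64 were above 0 (52.2% of all genes), 26 were above 0 in both series (22.5%) and 0 below in both (21.7%). Their median was 0.11, with 1 gene, Rpl3, higher at an unadjusted p under 0.05. The level of these genes was 0.28 and 0.24 in KD mice E61 and E227, -0.18 and -0.03 in E68 and E207, 0.02 to 0.09 in CD mice E62, E67 and E228, and -0.32 and -0.15 in E249 and E265, so that the groups overlapped. The median was 0.04 without E227 and at most 0.22 without any 1 mouse, and 0.31 with the striatal covariate, with 8 genes higher. Mitochondrial ribosomal proteins (76 genes), the proteasome (34), and histone acetylation and deacetylation (39) had 0 genes higher or lower. Chaperone genes had 2 of 38 higher and 1 lower. The lower one, Hspa1b, an inducible Hsp70, was at 3.55, 3.88, 3.05 and 3.74 CPM on the KD and at 7.13, 6.12, 4.85, 6.45 and 6.38 CPM on the CD, with no overlap (log2 fold change -0.81, SE 0.175). Circadian clock genes had 0 of 24 past an unadjusted p of 0.05 (median -0.11), and nuclear long noncoding RNAs had 2 of 15 lower and 0 higher (median -0.18).

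The list that holds Ndst3, heparan and chondroitin sulfate synthesis, had 1 of 39 genes higher and 4 lower, with a median of -0.03. Of the other lower members, Ext1, which extends heparan sulfate chains, was at 37.3, 42.5, 52.2 and 70.1 CPM in KD mice E61, E68, E207 and E227 and at 63.9 to 79.7 CPM on the CD (log2 fold change -0.47, SE 0.170). Chsy3, a chondroitin synthase, was at 24.8 to 39.6 CPM on the KD and 37.6 to 50.6 CPM on the CD (-0.45, SE 0.148). The groups overlapped for both genes, unlike for Ndst3.

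**Figure D5:**
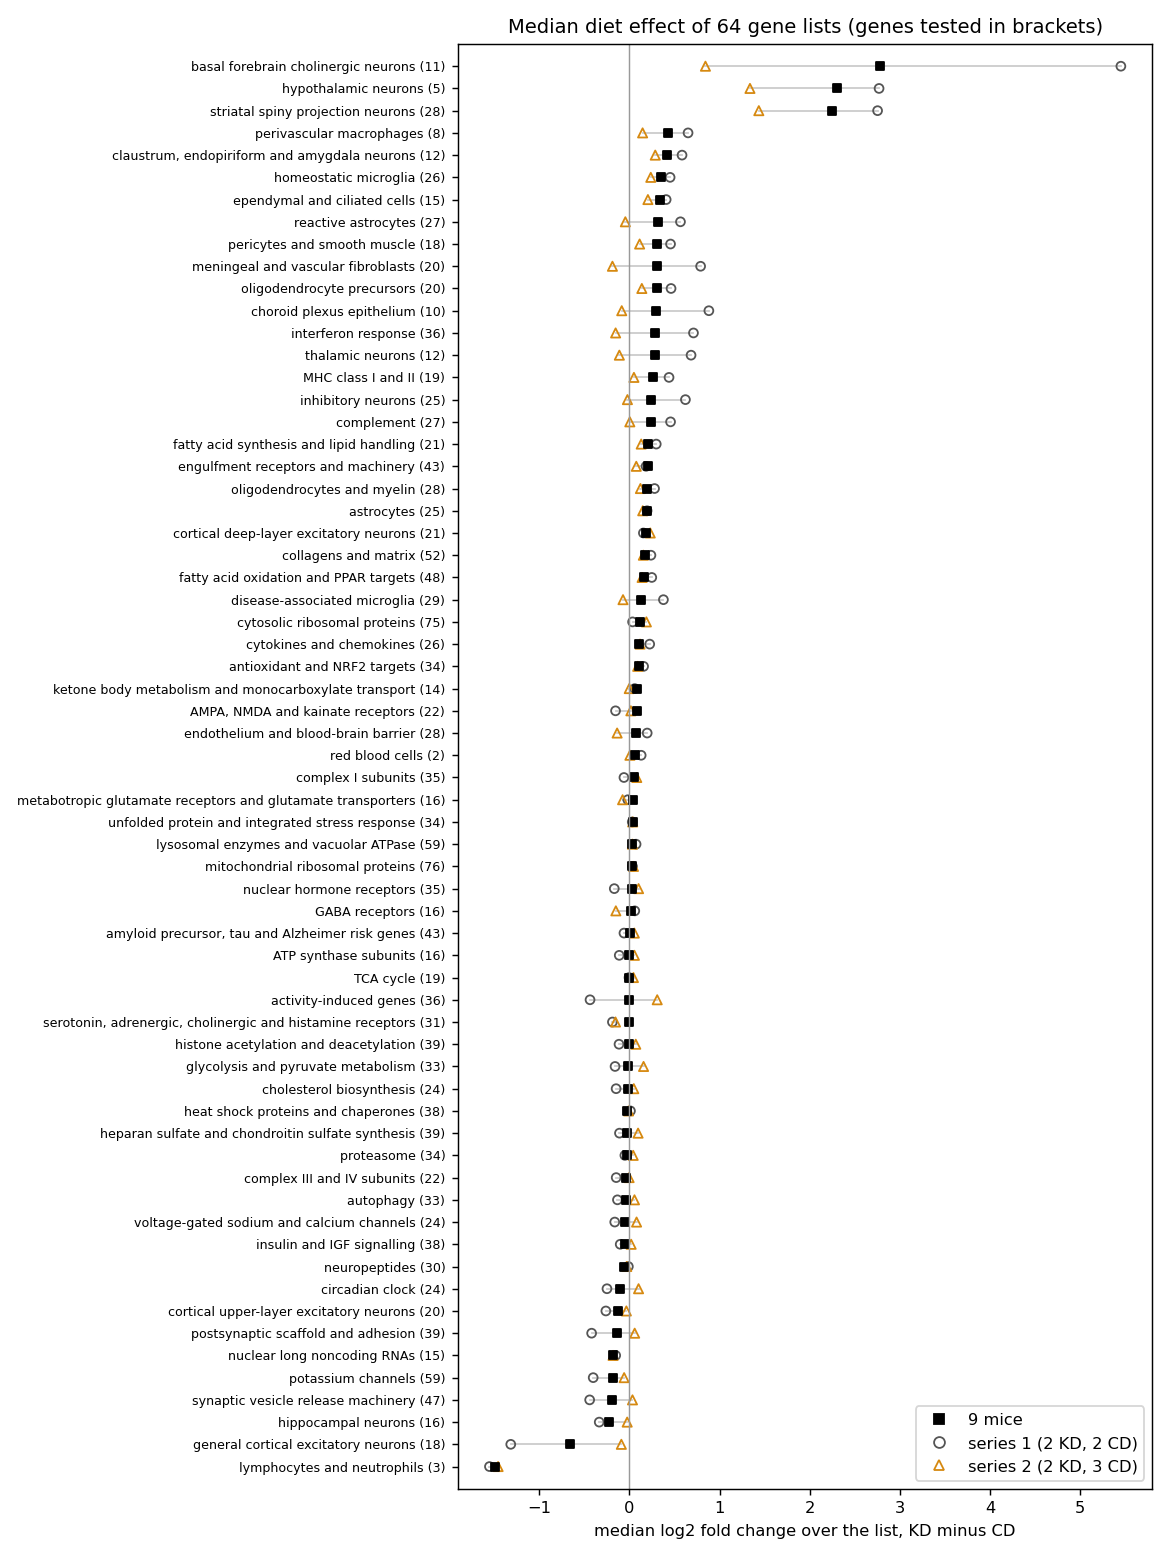
Median log2 fold change, KD minus CD, of each of 64 gene lists (rows, with the number of genes tested) in all 9 mice (black squares), in series 1 (circles) and in series 2 (triangles). Cholinergic, hypothalamic and striatal lists lie furthest right (2.78, 2.30 and 2.25). Cortical excitatory genes and 3 leukocyte genes lie furthest left (-0.66 and -1.49), while metabolic and housekeeping lists cluster near 0. Without E249 the cholinergic, hypothalamic and leukocyte medians were 1.40, 0.04 and 0.53, over the genes that passed the filter in that fit.

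The genes lower at an unadjusted p under 0.05 were longer and more abundant than those higher. The median gene span was 69.3 kb for lower genes, 29.7 kb for higher genes and 25.1 kb for all tested genes, and the median of mean CPM was 43.8, 13.6 and 19.7 in the same order. Lengths were found for 98.1%, 99.7% and 99.1% of these genes by symbol. Protein-coding genes made up 93.0% of the lower and 97.3% of the higher genes, against 94.7% of all.

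Male mice, which were not used to order the genes, were set beside the 20 genes in 1 fit of all 20 libraries. For 19 of the 20 the male log2 fold change had the female sign, a count with no share over all genes beside it. The male change had the same sign at an unadjusted p under 0.05 for 12 of the 20, against 3.56% of all genes in either direction in males. Each gene's spread in that fit was estimated over both sexes. The male p of genes picked for small female p is therefore not independent of that choice. The exception was Fcgr4, at 0.139 ± 0.101 CPM in KD males (SD, n = 6) and 0.489 ± 0.107 CPM in CD males (SD, n = 5), the opposite direction to females, with an adjusted p of 0.116 for the difference of the diet effect between the sexes (edgeR quasi-likelihood test). For Ndst3 KD males averaged 43.1 ± 12.4 CPM (SD, n = 6) and CD males 51.6 ± 4.45 CPM (SD, n = 5), with a male log2 fold change of -0.31. The striatal gene Drd1a was uneven among males too, at 72.1 ± 111 CPM in KD and 31.3 ± 16.7 CPM in CD males, with a highest male value of 298 CPM. Of the 20 genes, Gpr6 averaged 2.08 ± 3.69 CPM and Clspn 4.11 ± 7.49 CPM in KD males, whereas Otof was less uneven at 18.4 ± 6.26 CPM. How far this unevenness enters the male changes was not tested.

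Across all 15660 genes of that fit, 0 passed when the female and male diet effects were compared and 335 had an unadjusted p under 0.05 (2.14%). Without KD mouse E227 41 genes passed, and without any of the other females 0 did. Median male values of the lists were 0.99 for striatal, -0.06 for cortical excitatory, 0.09 for homeostatic microglia and 0.01 for fatty acid oxidation genes.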

How the data were processed

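The authors sequenced RNA of cortex from single mice and deposited raw counts of reads per gene, made with STAR on mm10 according to the submitters' processing notes. The study's methods name a stranded kit and counting by HTSeq within STAR, and the annotation and strand setting of the counting are not given in the sources used here. The 9 female libraries were fitted with edgeR 4.0.16 in R 4.3.3 (quasi-likelihood, robust), after upper-quartile normalization and filterByExpr, with library series in the model. The study's methods name RUVg without its number of factors or control genes, so RUVg was an alternative. Its control genes here were all tested genes except the 5000 of smallest p for diet in the main fit. DEGs had FDR ≤ 0.1 and at least 1.5-fold change. CPM used upper-quartile scaled library sizes over all 20 libraries. Named genes were the 10 of smallest p in each direction, up to 4 of smallest p in each list, and defining markers. The members and gene lists were chosen with earlier results of these data known, so lists got no test. Other settings were TMM, DESeq2 1.42.0, filters, each series alone and leaving out mice. Fits that left out mice filtered the genes again, so a list can hold other genes there. Replicates are separate mice, with depths of 12207161 to 25756335 counts. The fit was also run on simulated data with the same spread set for every gene. That setting is simpler than these mice, so it does not vouch for the counts of DEGs here. Coordinates come from GENCODE vM21 and promoters from RefSeq. Some genes of these lists are not reported here.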

Additional observations from a re-analysis of the deposited data

Results flagged for a closer look

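In 17 of 174 groups of 4 or 5 mice examined, the highest or lowest mouse stood apart from the rest by Dixon's gap ratio (the gap to the nearest mouse over the group's range), where chance gives about 1 in 20 groups, or 8.7. KD mouse E227 was the one apart in 5 groups, CD mouse E249 in 7, CD mouse E265 in 3, and E61 and E62 in 1 each.

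E227 was low among KD mice for the striatal (0.886), cholinergic (0.930) and hypothalamic (0.849) lists and for Drd1a (0.911), and high for general cortical excitatory genes (0.901). E249 was high among CD mice for the striatal (0.761), cholinergic (0.883), fibroblast (0.755) and choroid plexus (0.927) lists, for Drd1a (0.810) and for H2-Q2 (0.734), and low for general cortical excitatory genes (0.783). E265 was low among CD mice for fatty acid oxidation and PPAR targets (0.745), fatty acid synthesis and lipid handling (0.768) and Adcy5 (0.752). E61 was low among KD mice for Opcml (0.899) and E62 high among CD mice for Crhr2 (0.752).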

How the results depend on the processing

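The count of DEGs, 1 with all 9 mice, was also 1 with TMM, with DESeq2 size factors, without a filter, with at least 10 counts in every library, without the series term and without the fold threshold. It was 7 with RUVg and 1 factor, 208 with 2 factors, 1848 in series 1, 0 in series 2, 7 with all 20 libraries, 64 with edgeR's likelihood ratio test, 99 with DESeq2's Wald test and 0 with the striatal level as a covariate. Leaving out 1 mouse gave 0 to 611 DEGs, with 611 without E249 and 349 without E227, and leaving out both, a choice made after their markers were seen, gave 1898. In the fit without both, low cortical markers and diet cannot be told apart, and the cause of the differing counts was not tested. For the difference between the sexes, leaving out 1 female gave 0 to 41 genes, with 41 without E227. Ndst3 was below 0 in all 24 fits, from -1.18 to -0.96, but did not pass in series 2 alone, with the covariate, or without E61, E68, E207, E62, E67 or E265. The medians of 39 of the 64 lists kept their sign without any 1 mouse, with the genes filtered again in each fit. No paired analysis was possible because the replicates are animal numbers that the groups do not share. Depth limits genes near 1 CPM, such as H2-Q2 and Fcgr4, which rest on few reads.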
